A study of Gallus gallus with 8 samples.

Results

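The non-collagen cartilage matrix proteins considered here are *COMP*, the matrilins *MATN1*, *MATN2*, *MATN3* and *MATN4*, *CILP*, *CNMD*, *UCMA* and *MGP*, and they were taken as the rows of the count table with these gene symbols. Of the 9 symbols, 8 were found among the 24154 genes of the table, and all 8 were tested. *UCMA* had no row under its symbol and was not analysed here. RNAseq libraries of polyA-selected mRNA had been made from dissected intervertebral discs (IVDs) of untreated 10-wk-old chickens, 4 from fusing pygostyle IVDs and 4 from free caudal IVDs, which the labels call permanent. The sample labels give the breed as white leghorn and the methods of the study give it as Tetra, from 8 chickens. No source used here says whether 1 bird gave both kinds of disc.

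Cartilage owes its stiffness to a network of collagen II fibrils filled with aggrecan, and smaller proteins tie these components together or keep the tissue free of vessels and mineral. COMP, a member of the thrombospondin family, and the matrilins are multi-armed adaptor proteins that bind collagens and proteoglycans. CILP is a secreted protein of the cartilage and the disc matrix. CNMD (chondromodulin) is an inhibitor of vessel growth, and MGP is a vitamin K-dependent inhibitor of calcification. A disc of the chicken tail holds a lamellar annulus, a nucleus pulposus and cartilage end plates. The study also describes a fibroconnective tissue, in pygostyle discs only, that expands as fusion proceeds. The fusing discs are in the course of being replaced by bone.

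The libraries summed to between 5682402 and 18434459 counts, the lowest in fusing replicate 2. Levels are given as CPM, the counts of a gene scaled to the size of its library. TMM factors were 0.699 to 0.857 in free and 1.142 to 1.385 in fusing libraries. Free replicate 2 stood apart for these genes: it was the lowest free library in 5 of the 8, and its *MATN3* was 115-fold below the mean of the other 3 free libraries on the log scale. The fold change of each of the 8 genes is therefore given with and without it. Because this library was picked by the values of these genes, a smaller SE or p without it is no added support. Gene positions are those of GRCg6a.

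In free replicate 2 some of the 8 genes were near the level of the other free libraries and some were far below it. Relative to the mean of the other 3 free libraries, log2 CPM in this library differed by -0.16 for *COMP*, -0.13 for *CILP* and -0.05 for *MATN2*, and by -6.85 for *MATN3*, -6.08 for *MATN1*, -4.85 for *CNMD*, -2.05 for *MGP* and -1.96 for *MATN4*. The median over all tested genes was 0.01, and only 2 of the 13639 were further below than *MATN3*, 8 than *MATN1* and 17 than *CNMD*. All 7 hypertrophic chondrocyte markers were over 2-fold lower in this library, with differences from -6.39 to -2.03, among them *COL10A1* (-5.84) and *IHH* (-6.39). Of the 9 osteoblast markers 4 were over 2-fold lower, *SP7* (-6.36), *DMP1* (-4.72), *RUNX2* (-4.52) and *IBSP* (-4.22). Of 10 chondrocyte markers 5 were over 2-fold lower, with *EPYC* (-8.36) lowest, whereas *COL2A1* (0.33), *SOX9* (0.04) and *ACAN* (-0.40) were not. All 7 endothelial markers were also over 2-fold lower (-1.78 to -1.05) than the mean of the other free libraries, but free replicate 1 was similarly low. Their sums were 90.5, 87.1, 421 and 357 CPM in free replicates 1 to 4. Against the same kind of mean, 4 of 5 skeletal muscle markers were over 2-fold higher, but free replicate 3 lowered that mean. The skeletal muscle list summed to 458, 486, 21.5 and 585 CPM in free replicates 1 to 4. Fibrous connective tissue and annulus markers summed to 224473, 376041, 140075 and 265278 CPM in the same libraries, highest in free replicate 2. Of these 10 markers 1 was over 2-fold higher there (*COL1A1*, 1.14) and 1 over 2-fold lower (*TNMD*, -2.09), with a median of 0.37. The part of any of these in the values of the 8 genes was not tested.

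**Figure D1:**
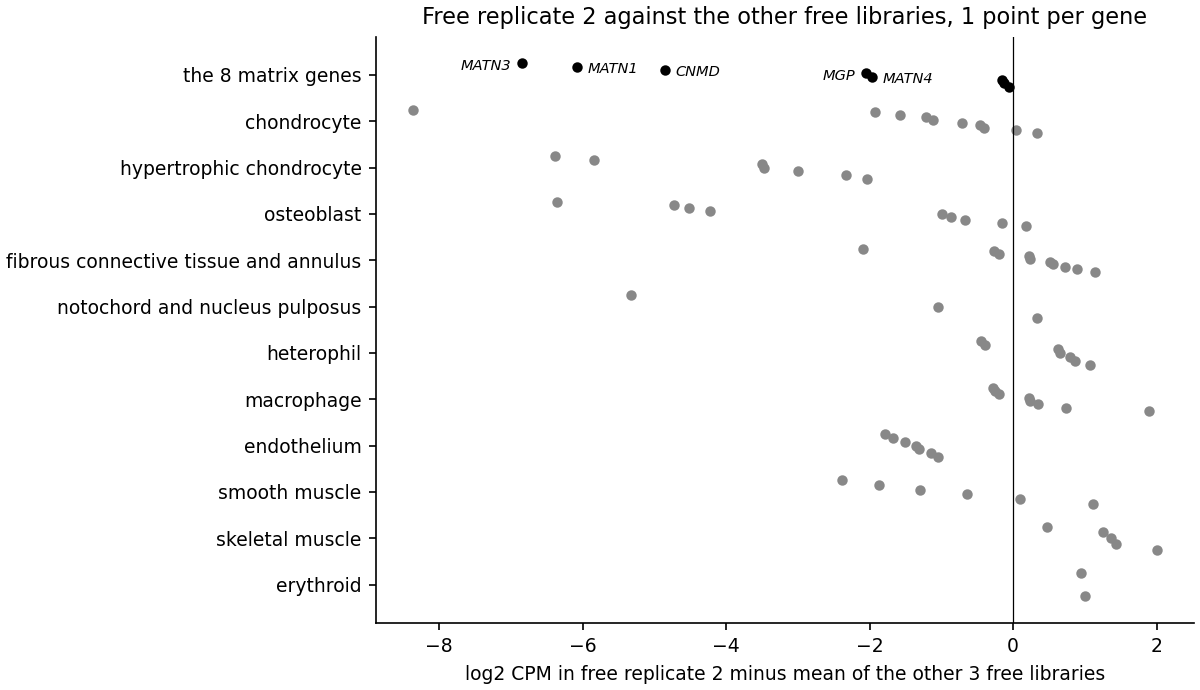
Log2 CPM in free replicate 2 minus the mean log2 CPM of the other 3 free libraries (x axis), with 1 point per gene, for the 8 matrix genes (black) and for lists of cell type markers (grey). *MATN3*, *MATN1*, *CNMD*, *MGP* and *MATN4* lie left of 0, as do all 7 hypertrophic chondrocyte markers, while *COMP*, *CILP* and *MATN2* lie near 0.

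The 8 genes did not move as a group (the plot of CPM in each library shows their values). *MATN1*, *MATN4* and *MGP* rose in fusing pygostyle IVDs, *CILP* and *MATN2* fell, and *COMP*, *MATN3* and *CNMD* were not called. The extremes were a 22.9-fold rise of *MATN4* and a 40.7-fold fall of *CILP*. The tissues were compared over all 13639 genes that passed a filter on low counts, by the quasi-likelihood test of edgeR on TMM-scaled libraries, with p-values adjusted by Benjamini-Hochberg. Calls needed more than a 2-fold difference together with an adjusted p below 0.05, the limits of the study. These limits called 5 of the 8 genes (62.5%), 3 higher and 2 lower, where they called 22.8% of all tested genes, 13.2% higher and 9.64% lower. Without free replicate 2 they called 6 of the 8, *COMP* in addition, and 21.9% of all tested genes. The median log2 fold change of the 8 genes was 0.92, and that of all tested genes was 0.01. The median of the 8 lay between *MATN3* (0.87) and *CNMD* (0.97), which were not called. Without free replicate 2 these genes were at 0.45 and 0.57. With 8 genes chosen as a family, these shares describe the genes and are no test of the group. Because the libraries are of whole tissue, fewer cells of a type and less RNA per cell cannot be told apart. Under scaling by library totals the median of all tested genes shifted by 0.69 (log2) toward fusing discs, and the share of called genes that were higher went from 57.7% to 87%. All 8 genes kept the sign of their fold change under this scaling.

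**Figure D2:**
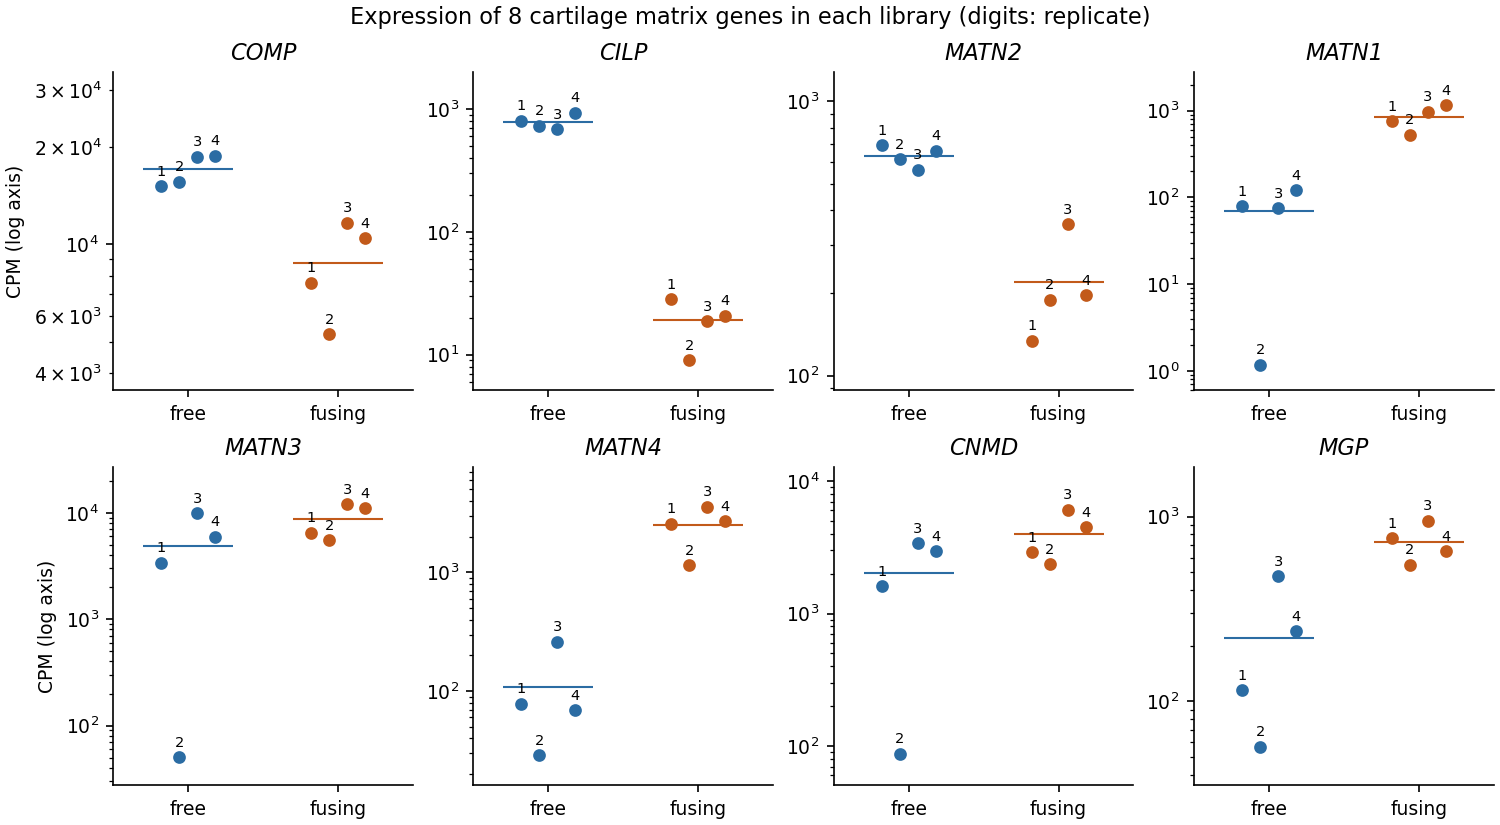
Expression of each gene in CPM (log axis) in the 4 free and 4 fusing libraries. Points are libraries with their replicate number, and horizontal lines are group means. *COMP*, *CILP* and *MATN2* are lower in every fusing library, *MATN1*, *MATN4* and *MGP* are higher in every fusing library, and free replicate 2 is far below the other free libraries in *MATN1*, *MATN3* and *CNMD*.

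*MATN1* encodes matrilin-1, long known as cartilage matrix protein, and lies on chromosome 23 of GRCg6a from 355962 to 372948 on the minus strand. Its CPM were 78.6, 1.18, 75.1 and 121 in free replicates 1 to 4 and 751, 526, 975 and 1156 in fusing replicates 1 to 4. The lowest fusing library was 4.35-fold above the highest free library. *MATN1* rose 12.4-fold, or by 3.63 on the log2 scale (SE 0.94, edgeR adjusted p = 0.0135). Without free replicate 2, which had 13 counts of the gene, the rise was 3.21 (SE 0.34, edgeR adjusted p = 0.000453). The smaller SE and p follow from leaving out a library picked for its low values, so they are not stronger evidence. The call was lost with sample-code numbers as the block, though the estimate was higher (4.64, edgeR adjusted p = 0.0631). In that fit free replicate 3 and fusing replicate 2, alone in their code numbers, do not enter the contrast. *MATN1* shares exon sequence with *LOC107055004*. Reads shared between several genes were left uncounted, so reads assigned to both would be missing from both values. How many were lost in this way was not tested. *LOC107055004* had 19 counts summed over the free and 229 over the fusing libraries (log2 fold change 3.06, edgeR adjusted p = 0.00363).

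*MATN4* (matrilin-4), on chromosome 20 from 5155013 to 5168757, had the largest rise among the 8 genes. Its CPM were 78.7, 28.7, 261 and 68.8 in free replicates 1 to 4 and 2568, 1148, 3575 and 2708 in fusing replicates 1 to 4. The groups did not overlap, and the lowest fusing library was 4.40-fold above the highest free library. *MATN4* rose by 4.52 on the log2 scale (SE 0.70, edgeR adjusted p = 0.00114). It was 4.19 without free replicate 2 (edgeR adjusted p = 0.00183) and 5.40 without free replicate 3, the free library with most *MATN4*. An exon of *MATN4* overlaps *RBPJL*, which had 144 counts summed over the free and 3485 over the fusing libraries. *RBPJL* also rose, by 4.12 on the log2 scale (edgeR adjusted p = 0.00104). Reads assigned to both genes would be missing from both values, so the counts of *RBPJL* do not show how many reads of *MATN4* were lost. The part of the overlap in either value was not tested.

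*MATN3* (matrilin-3), on chromosome 3 from 101394465 to 101409742, is the matrilin in which human mutations cause epiphyseal dysplasia. By mean CPM per kb it was the most abundant matrilin in both tissues. Its CPM were 3390, 50.6, 9908 and 5933 in free replicates 1 to 4 and 6521, 5532, 12054 and 11033 in fusing replicates 1 to 4. Free replicate 2 was far below all others, and without it the ranges of the tissues still overlapped. The log2 fold change of 0.87 was not called (SE 1.00, 95% interval -1.38 to 3.11, edgeR adjusted p = 0.528), nor was the 0.45 found without free replicate 2 (95% interval -0.56 to 1.45, edgeR adjusted p = 0.470). These intervals include both no change and a change of over 2-fold.

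*MATN2* (matrilin-2), the matrilin found in many connective tissues besides cartilage, lies on chromosome 2 from 127295674 to 127365166. Its CPM were 692, 614, 562 and 660 in free replicates 1 to 4 and 134, 189, 357 and 196 in fusing replicates 1 to 4. All fusing libraries were below all free libraries, and free replicate 2 was like the other free libraries. *MATN2* fell by 1.53 on the log2 scale (SE 0.28, edgeR adjusted p = 0.00246). Without free replicate 2 the value was -1.55 (edgeR adjusted p = 0.00589). Scaled by library totals it was -0.87 and was not called.

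The matrilins differed in direction, and their mix differed between the tissues. Of the summed CPM per kb of the 4 matrilins, *MATN3* made up 90.2%, 95.7% and 94.0% in free replicates 1, 3 and 4 and 16.6% in free replicate 2. In free replicate 2 the largest share, 76.8%, was *MATN2*, while the summed level was 166 CPM per kb against 2047 to 5636 in the other free libraries. In fusing replicates 1 to 4 *MATN3* made up 74.1%, 82.3%, 79.0% and 80.6%. *MATN4* made up 0.743% to 6.41% in free libraries and 11.6% to 19.9% in fusing libraries, without overlap. *MATN1* made up 0.247% to 1.34% in free and 4.10% to 5.47% in fusing libraries, also without overlap. These shares are ratios within a library and do not depend on the scaling between libraries.

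**Figure D3:**
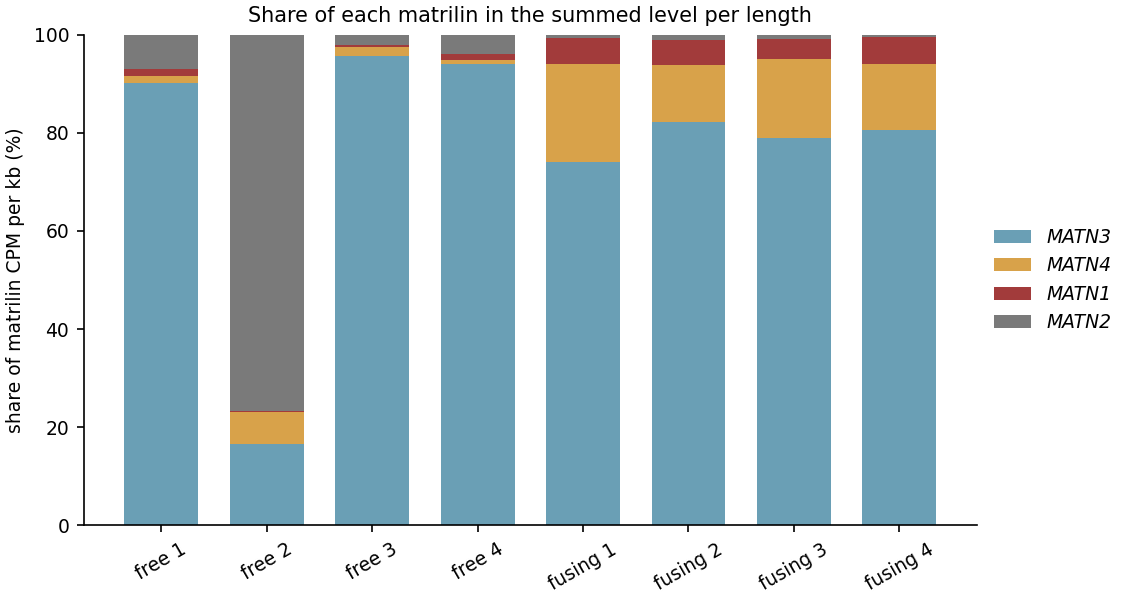
Share of each matrilin in the summed CPM per kb of the 4 matrilins (y axis, percent) in each library (x axis). *MATN4* and *MATN1* take larger shares in all 4 fusing libraries than in any free library, and in free replicate 2 *MATN2* holds 76.8%.

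*COMP* (cartilage oligomeric matrix protein), on chromosome 28 from 3885739 to 3901177, was the most abundant of the 8 genes in free IVDs. It took 1.09% to 1.60% of all counts in free and 0.728% to 1.33% in fusing libraries. Its CPM were 15117, 15625, 18638 and 18790 in free replicates 1 to 4 and 7605, 5269, 11660 and 10450 in fusing replicates 1 to 4. In these TMM-scaled CPM every fusing library was below every free library, whereas the shares of all counts overlapped between the tissues. The CPM of free replicate 2 lay within the range of the other free libraries. The difference of -0.96 on the log2 scale (SE 0.31, edgeR adjusted p = 0.0339) passed the p limit and missed the fold limit, so *COMP* was not called. It was -1.01 without free replicate 2 (edgeR adjusted p = 0.0462), -1.02 with the replicate number as a block (edgeR adjusted p = 0.0278) and -1.06 with limma-voom (adjusted p = 0.0150), all called. Without fusing replicate 3 it was -1.15 and also called, and with library totals it was -0.30. The p limit was missed in the other 6 fits that left out 1 library (edgeR adjusted p = 0.0557 to 0.0906), with upper-quartile factors (0.0536), with no filter on low counts (0.066) and with sample-code numbers as the block (-0.75, edgeR adjusted p = 0.234).

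*CILP* (cartilage intermediate layer protein), on chromosome 10 from 18232791 to 18243212, is known in humans for variants linked to lumbar disc disease. Its CPM were 803, 733, 689 and 932 in free replicates 1 to 4 and 28.4, 9.04, 18.7 and 20.9 in fusing replicates 1 to 4. The lowest free library was 24.3-fold above the highest fusing library. *CILP* fell by 5.35 on the log2 scale (SE 0.35, edgeR adjusted p = 6.2e-05), and the value was -5.39 without free replicate 2 (edgeR adjusted p = 0.000161). Its paralog *CILP2* had 3511, 6252, 2571 and 4965 CPM in free replicates 1 to 4 and 107, 84.8, 234 and 129 CPM in fusing replicates 1 to 4. *CILP2* fell by 4.96 on the log2 scale (SE 0.44, edgeR adjusted p = 9.93e-05).

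*CNMD* encodes a membrane-bound precursor from which the secreted chondromodulin is cut, and lies on chromosome 1 from 167041408 to 167053144. Its CPM were 1601, 87.6, 3414 and 2966 in free replicates 1 to 4 and 2917, 2358, 6081 and 4482 in fusing replicates 1 to 4. The ranges overlapped also when free replicate 2, the lowest library, was left out. The log2 fold change of 0.97 was not called (SE 0.81, 95% interval -0.85 to 2.79, edgeR adjusted p = 0.372). Without free replicate 2 it was 0.57 (95% interval -0.35 to 1.48, edgeR adjusted p = 0.310). The related gene *TNMD* (tenomodulin) of tendon and ligament had 14.1 ± 6.88 CPM (SD, n = 4) in free and 15.4 ± 8.83 CPM (SD, n = 4) in fusing IVDs and was not called (log2 fold change 0.15, edgeR adjusted p = 0.843).

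*MGP* (matrix Gla protein), whose loss in mice calcifies arteries and cartilage, lies on chromosome 1 from 48028796 to 48034029. Its CPM were 115, 56.7, 474 and 239 in free replicates 1 to 4 and 764, 549, 948 and 650 in fusing replicates 1 to 4. The groups did not overlap, but the lowest fusing library was only 1.16-fold above free replicate 3. *MGP* rose by 1.72 on the log2 scale (SE 0.56, edgeR adjusted p = 0.0361), by 1.39 without free replicate 2 (edgeR adjusted p = 0.0400) and by 2.40 without free replicate 3. The call was lost when free replicate 1 (1.50) or 4 (1.75) or fusing replicate 1 (1.67), 2 (1.83), 3 (1.55) or 4 (1.77) was left out. *BGLAP* (osteocalcin), another Gla protein of the skeleton on the lists, rose by 5.46 (SE 0.81, edgeR adjusted p = 0.000897), from 4.86 ± 1.83 CPM (SD, n = 4) in free to 216 ± 189 CPM (SD, n = 4) in fusing IVDs. *GGCX*, the carboxylase that makes Gla residues, had 37.2 ± 3.60 CPM (SD, n = 4) in free and 24.1 ± 5.95 CPM (SD, n = 4) in fusing IVDs and was not called (log2 fold change -0.62, edgeR adjusted p = 0.0225).

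**Figure D4:**
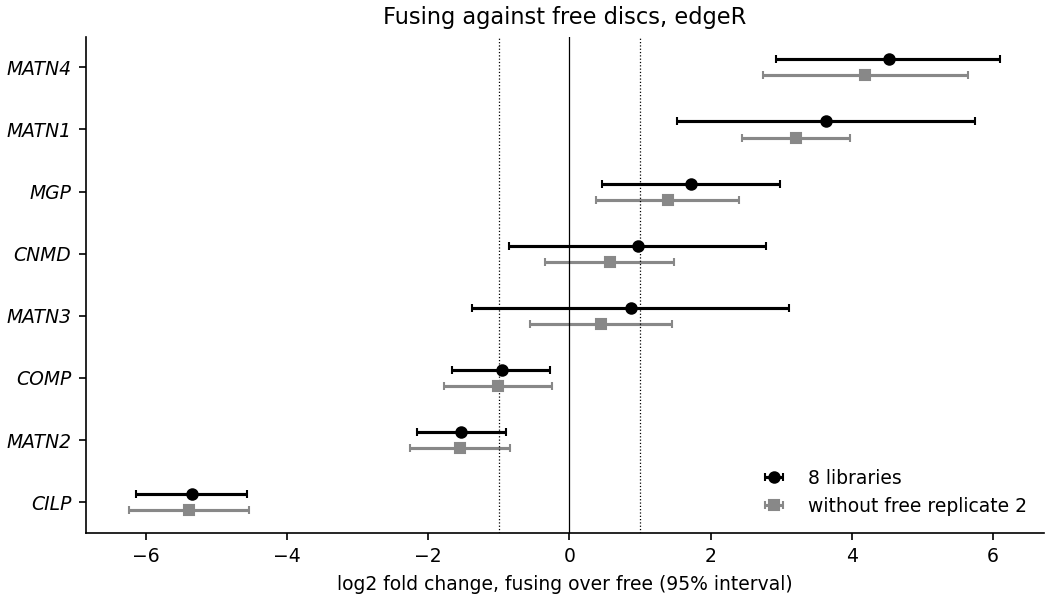
Log2 fold changes of fusing over free IVDs from edgeR with 95% intervals (x axis) for each gene (y axis), with all 8 libraries (black circles) and without free replicate 2 (grey squares). Dotted lines mark a 2-fold change. *MATN4* and *MATN1* lie wholly above and *CILP* wholly below the 2-fold lines in both fits, and the intervals of *MATN3* and *CNMD* include 0.

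In TMM-scaled CPM, libraries did not overlap between the tissues for 3 genes upward (*MATN1*, *MATN4*, *MGP*) and 3 genes downward (*COMP*, *CILP*, *MATN2*). These are 6 of 8 genes, against 39.8% of all tested genes in either direction. Leaving out free replicate 2 cannot make separated groups overlap, so it gives no further check of these 6. *MATN3* and *CNMD* overlapped with and without it. Over all tested genes, such separation was seen upward in 19.6% and downward in 20.2% with the 8 libraries, and in 21.5% and 22.3% without free replicate 2. As a share of all counts, *COMP* overlapped between the tissues (1.09% to 1.60% in free and 0.728% to 1.33% in fusing libraries).

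Levels of different genes were compared as CPM per kb of gene model. In free IVDs *COMP* had 5819 ± 663 CPM per kb (SD, n = 4), followed by *MATN3* with 2625 ± 2266, *CNMD* with 739 ± 549, *MGP* with 328 ± 275, *CILP* with 187 ± 25.1, *MATN2* with 131 ± 11.7, *MATN4* with 40.6 ± 38.4 and *MATN1* with 24.1 ± 17.3. *COMP* was above *MATN3*, *CILP* above *MATN2*, and *MATN2* above *MATN4* in 4 of 4 free libraries, but the ranges of *COMP* and *MATN3* overlapped. The ranges of *CILP* and *MATN2*, and those of *MATN2* and *MATN4*, did not overlap. All remaining neighbours in this order had overlapping ranges, and *MGP* exceeded *CILP* in 2 of 4 libraries. In fusing IVDs *MATN3* led with 4785 ± 1763 CPM per kb (SD, n = 4), then *COMP* with 2986 ± 981, *CNMD* with 1450 ± 614, *MGP* with 1080 ± 254, *MATN4* with 928 ± 373, *MATN1* with 297 ± 95.5, *MATN2* with 45.6 ± 19.9 and *CILP* with 4.56 ± 1.89. In 4 of 4 fusing libraries *MATN3* was above *COMP*, *COMP* above *CNMD*, *MATN4* above *MATN1*, *MATN1* above *MATN2*, and *MATN2* above *CILP*. *CNMD* over *MGP* and *MGP* over *MATN4* held in 3 of 4. The ranges were apart only from *MATN4* downward in this order. By mean CPM per kb, *COMP* ranked 8 in free and 11 in fusing IVDs among all tested genes, *MATN3* 17 and 7, *MATN4* 1086 and 41, and *CILP* 264 and 7329.

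Ratios between the genes were taken within each library, on the log2 scale of CPM per kb, so that no scaling between libraries enters. *COMP* over *MATN3* was 1.48, 7.60, 0.24 and 0.99 in free replicates 1 to 4 and -0.45, -0.74, -0.72 and -0.75 in fusing replicates 1 to 4. *COMP* thus exceeded *MATN3* in every free library and was below it in every fusing library. *MATN1* over *MATN3* was -6.07, -6.07, -7.69 and -6.26 in free and -3.76, -4.04, -4.27 and -3.90 in fusing replicates 1 to 4. In this ratio free replicate 2 lay with the other free libraries, and the tissues did not overlap. *MATN3* over *CNMD* was 1.66, 2.11 and 1.57 in free replicates 1, 3 and 4 and 1.56 to 1.87 in the fusing libraries, with overlap, and was -0.22 in free replicate 2. *MATN2* over *CILP* spanned only 0.28 over the free libraries, from -0.68 to -0.40, and 2.05 to 4.20 over the fusing libraries. Against *COL2A1*, the main cartilage collagen, which itself fell by 1.73 on the log2 scale (edgeR adjusted p = 0.0239), *COMP* ranged from -2.71 to -1.97 in free and from -2.09 to -1.23 in fusing libraries, and *MATN2* from -8.16 to -7.14 and from -7.84 to -6.96, with overlap in each. Relative to *COL2A1*, *MATN3* ranged from -10.31 to -2.63 in free and from -1.37 to -0.51 in fusing libraries, and *CILP* from -7.68 to -6.73 and from -11.90 to -9.82, without overlap. The fall of *COL2A1* was not called when free replicate 4 (-1.70) or fusing replicate 1 (-1.59), 2 (-1.53) or 4 (-1.70) was left out, with sample-code numbers as the block (-1.56), or with no filter on low counts (edgeR adjusted p = 0.0541).

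**Figure D5:**
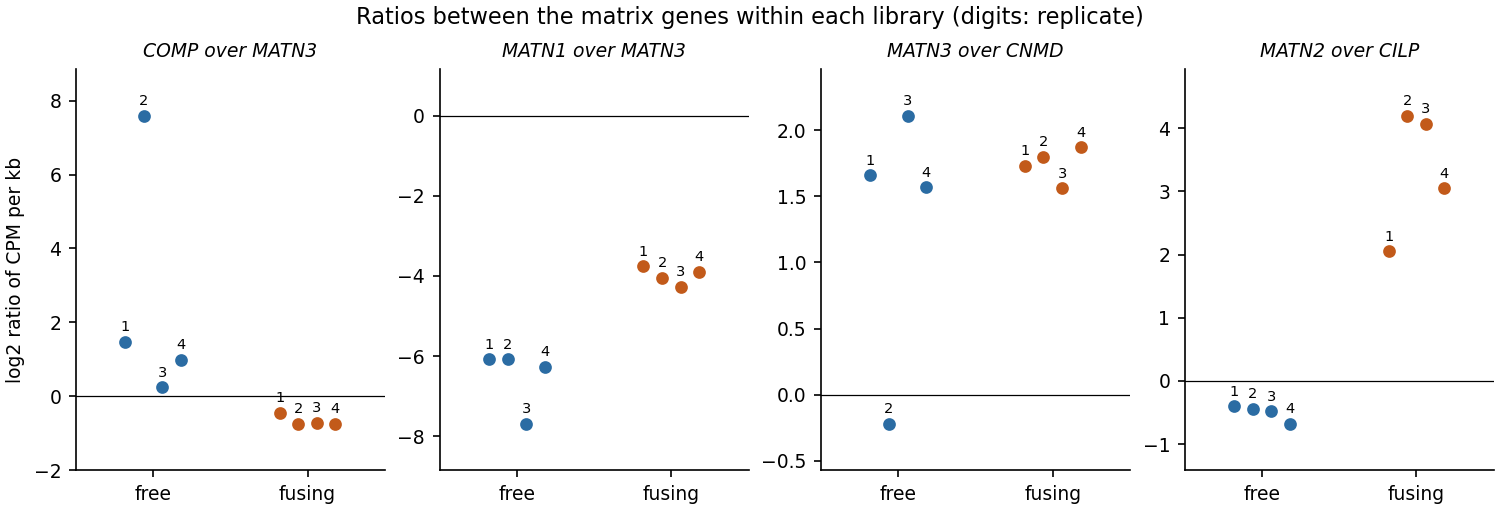
Log2 ratios of CPM per kb within each library (y axis) for 4 pairs of genes, in free (blue) and fusing (orange) libraries with their replicate number. *COMP* over *MATN3* changes sign between the tissues, *MATN1* over *MATN3* and *MATN2* over *CILP* do not overlap between them, and *MATN3* over *CNMD* overlaps and is lowest, at -0.22, in free replicate 2.

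Summed over the list, hypertrophic chondrocyte markers had 2473, 209, 9378 and 2337 CPM in free replicates 1 to 4 and 12970 to 28953 CPM in fusing libraries. Free replicate 3, the highest of the free libraries in this sum, was also the highest in *MATN3*, *MATN4*, *CNMD* and *MGP*, and free replicate 2 was the lowest in the sum and in each of these. In *MATN1* free replicate 4 was the highest. In free replicates 1 to 4 osteoblast markers summed to 72.9, 9.58, 234 and 102 CPM. Notochord and nucleus pulposus markers summed to 44.3, 33.2, 76.4 and 47.0 CPM. Both sums, and the endothelial sum, were likewise highest in free replicate 3 and lowest in free replicate 2. The other marker lists had another highest or lowest free library. *COL10A1* made up much of the hypertrophic sum, with 1613, 47.3, 7558 and 1638 CPM in free replicates 1 to 4 and 8861 to 23692 in fusing libraries. In each of the 7 markers, too, free replicate 3 was the highest and free replicate 2 the lowest free library. edgeR called 5 of the 7 markers higher (median log2 fold change 2.46). *COL10A1* (2.64, edgeR adjusted p = 0.0776) and *IHH* (2.46, edgeR adjusted p = 0.0718) were not called. The 10 chondrocyte markers found summed to 153699 to 234687 CPM in free and 55214 to 159197 CPM in fusing libraries, with 3 called lower and 7 not called. *COL2A1*, with means of 152383 CPM in free and 46029 CPM in fusing IVDs, made up much of these sums. The median log2 fold change of the 10 chondrocyte markers was 0.19. Fibrous connective tissue and annulus markers summed to 140075 to 376041 CPM in free and 33502 to 48527 CPM in fusing libraries, with 8 of 10 called lower and *THBS4* (1.34) called higher. *COL1A1* (means 103812 CPM in free and 16379 CPM in fusing IVDs) and *COL1A2* (96559 and 18872 CPM) made up much of these sums. This list does not separate the annulus from the fibroconnective tissue that the study describes in pygostyle discs, so the amount of that tissue was not tested. Osteoblast markers summed to 9.58 to 234 CPM in free and 1431 to 1931 CPM in fusing libraries (7 of 9 called higher), heterophil markers to 48.8 to 297 CPM and 980 to 4486 CPM (7 of 7), and macrophage markers to 115 to 280 CPM and 718 to 1484 CPM (8 of 8). Smooth muscle markers, of a cell type in which *MGP* is also known, summed to 37.3 to 253 CPM in free and 41.3 to 147 CPM in fusing libraries, and none of the 6 was called. The part of these cell types in the values of the 8 genes was not tested.

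For each gene the tested gene most like it was found among 10528 others with a mean of at least 5 CPM, as the smallest root-mean-square difference of log2 CPM centred on the mean over the 8 libraries. For *CILP* it was *CDH3* (P-cadherin), at 0.30, with a log2 fold change of -5.36. For *COMP* it was *TEAD3* (0.11), for *MATN2* *NFIX* (0.20), for *MGP* *PTH1R* (0.18), the receptor of parathyroid hormone, and for *MATN3* *SP7* (0.40), the osteoblast transcription factor osterix. For *CNMD* it was *EXTL1* (0.30), for *MATN4* *LRRN1* (0.31) and for *MATN1* *SMPD3* (0.82), the least close of the 8. Among the 8 genes themselves, *COMP* and *MATN2* were nearest to each other, at 0.46, but 1787 and 515 were their ranks in closeness among all candidates. *MATN3* and *CNMD* were at 0.67, where *CNMD* was 7th in closeness to *MATN3* and *MATN3* was 14th to *CNMD*. All these distances include free replicate 2, where *MATN3* (-6.85), *SP7* (-6.36) and *CNMD* (-4.85) were all far below the other free libraries in log2 CPM. Likeness without that library was not tested.

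Genes that act with the 8 proteins were read from lists of relatives, binding partners, Gla carboxylation, proteases and regulators. Of 40 listed genes 35 were tested, and edgeR called 4 higher and 12 lower (45.7%, against 22.8% of all tested genes), with a median log2 fold change of -0.04. Without free replicate 2 the counts were also 4 and 12, with the replicate number as a block 6 and 12, and with library totals 10 and 9. Of the relatives, the matrilin-like *VWA1* fell by 3.87 on the log2 scale and *THBS2* by 1.76, while *THBS1* was not called (-0.73). *THBS4* rose from 2.58 ± 1.54 CPM to 6.47 ± 2.42 CPM (SD, n = 4), a log2 fold change of 1.34 that lost its call without any of free replicates 1, 2 and 4 and fusing replicates 1, 3 and 4 (1.24 without free replicate 2, edgeR adjusted p = 0.0782). Of the binding partners 5 of 11 were called, all lower, *COL2A1*, the collagen VI chains *COL6A1* (-3.75), *COL6A2* (-4.21) and *COL6A3* (-4.11), and *DCN* (decorin, -3.09). The collagen IX chains (0.22 to 0.67), *COL11A1* (0.38), *ACAN* (-0.56) and *HAPLN1* (0.17) were not called.

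Of 6 proteases, *ADAMTS7*, which cleaves COMP, rose by 1.55 (SE 0.36, edgeR adjusted p = 0.00824), from 16.1 ± 8.36 CPM to 47.1 ± 10.3 CPM (SD, n = 4). *ADAMTS12*, its close relative and also a COMP-cleaving enzyme, was not called (0.06, edgeR adjusted p = 0.948). *ADAMTS4*, at 1.04 ± 0.554 CPM in free and 2.36 ± 1.34 CPM in fusing IVDs (SD, n = 4), was not called (1.25, edgeR adjusted p = 0.1). It was called higher with the replicate number (1.17, edgeR adjusted p = 0.0369) or sample-code numbers (1.78, edgeR adjusted p = 0.0215) as the block. With library totals (1.90) and without fusing replicate 2 (1.51) it was also called higher. *HTRA1*, a secreted serine protease, fell by 3.13 on the log2 scale, from 1765 ± 431 CPM to 202 ± 70.2 CPM (SD, n = 4). The collagenase *MMP13* rose by 3.45 (SE 1.13, edgeR adjusted p = 0.0370), and by 5.24 without free replicate 3, and its call was lost without any of free replicates 1 and 4 and fusing replicates 1 to 4. Of 9 tested regulators, the cartilage transcription factors *SOX5* (-1.50), *NKX3-2* (-1.29) and *SOX9* (-1.17) fell and *SOX6* (0.18) was not called. With library totals these 3 were not called (-0.85, -0.64 and -0.51), *NKX3-2* was also not called with sample-code numbers as the block (-1.10, edgeR adjusted p = 0.051), and *SOX9* was also not called without free replicate 4 (-1.07) or fusing replicate 1 (-1.13), 2 (-0.97) or 4 (-1.10). *RUNX2*, the regulator of hypertrophy and bone formation, was not called with the 8 libraries (1.81, SE 0.72, edgeR adjusted p = 0.0740). It was called higher with the replicate number as a block (2.31, edgeR adjusted p = 0.0484), with limma-voom (2.62, adjusted p = 0.0493), with library totals (2.43, edgeR adjusted p = 0.0148), without free replicate 2 (1.41, edgeR adjusted p = 0.00649) and without free replicate 3 (2.35, edgeR adjusted p = 0.0394).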

How the data were processed

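The deposited counts per gene had been made by the authors, per the methods and the labels, from unstranded, polyA-enriched read pairs aligned with STAR to GRCg6a and counted with featureCounts on RefSeq gene models, with reads shared between several genes left uncounted. The authors' DESeq2 columns of fold changes, p-values and means were not used. Genes were filtered with a minimum count of 10 and a minimum total of 15, and tested with edgeR 4.0.16 in R 4.3.3 on all 8 libraries without covariates. limma-voom (limma 3.58.1), DESeq2 1.42.0, other scalings and filters, blocks and leaving out each library were alternatives. CPM use TMM-scaled library sizes, and log2 CPM a prior count of 2. The fits were checked on simulated counts. Deviations from the group means correlated at r = 0.24, 0.16, 0.11 and 0.25 between same-numbered free and fusing libraries and at -0.23 to 0.19 between the others, and the highest were the pairs 1 and 4, which also share a sample-code number. The third pair that shares one, free 2 and fusing 3, was at -0.06. Free 3 and fusing 2 share a code number with no other library, so with that block they do not enter the contrast of tissues. No label explains the numbers, so the reported fits have no block. Blocked values are given where a call changes among the 8 genes or the genes listed as acting with them. The methods call the libraries biological replicates, but no label ties a library to a bird, so p-values measure the spread between these samples. The genes, lists and tests were chosen with earlier results of these data known. Named genes were all members found, the genes of the fixed lists that passed the limits or whose role a result turns on, and the gene most like each member. Chromosome names of the count table were matched through the symbols of a RefSeq gene table.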

Additional observations from a re-analysis of the deposited data

Results flagged for a closer look

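In free IVDs, *MATN1* in free replicate 2 (1.18 CPM, 13 counts) lay far from the other 3 libraries (75.1 to 121 CPM). The gap to the nearest of them took up 0.895 of the group's whole range in log2 CPM, above Dixon's 95% limit for 4 samples. Of 16 groups looked at (8 genes in 2 tissues), it was the only one past the limit, and chance alone passes about 1 in 20 groups.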

How the results depend on the processing

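Over 17 alternatives, 124 of the 136 fold changes of the 8 genes kept their direction and their call, 12 changed call, and none reversed. A call takes the p and fold limits together. *COMP* counts as kept also in alternatives where it missed the p limit that it passed in the reported fit. *COMP* was called with limma-voom (-1.06) and with the replicate number as a block (-1.02), *MATN2* was not called with library totals (-0.87), and *MATN1* was not called with the sample code number as a block (4.64). The replicate block changed no other call among the 8 genes. Leaving out 1 library at a time gave ranges of -1.15 to -0.79 for *COMP*, -5.61 to -5.12 for *CILP*, -1.89 to -1.37 for *MATN2*, 3.21 to 4.04 for *MATN1*, 0.45 to 1.48 for *MATN3*, 4.19 to 5.40 for *MATN4*, 0.57 to 1.34 for *CNMD* and 1.39 to 2.40 for *MGP*, with 4 to 6 genes called. *MGP* lost its call without free replicate 1 (1.50) or 4 (1.75) or fusing replicate 1 (1.67), 2 (1.83), 3 (1.55) or 4 (1.77). The cause of these changes was not tested. With library totals 4179 genes were called higher and 624 lower, against 1797 and 1315. Low counts limit the precision of *MATN1* in free replicate 2 (13 counts) and of *CILP* in fusing libraries (71 to 526 counts). *UCMA* gave no value.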

Other observations

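Within the fusing IVDs, fusing replicate 2 was the lowest library in 7 of the 8 and fusing replicate 3 the highest in 6 of the 8. In fusing replicates 1 to 4 the chondrocyte markers summed to 74298, 55214, 159197 and 91164 CPM, the heterophil markers to 2876, 4006, 980 and 4486 CPM, and the osteoblast markers to 1498, 1704, 1431 and 1931 CPM. Fusing replicate 2 was also the shallowest library, with 5682402 counts.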
